A study of Mus musculus with 6 samples.

Results

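Interferon response genes were followed in primary oviductal smooth muscle cells of pregnant mice with and without Pbrm1, a subunit of the PBAF form of the SWI/SNF chromatin remodeling complex. The set held 42 genes, chosen by symbol with earlier results of these data known, and all 42 were found among the 54232 gene rows of the count table. Polyadenylated and other RNA of the cells was sequenced with a stranded kit that removes ribosomal fragments, in 3 WT and 3 Pbrm1 cKO libraries. The females were 8 to 12 weeks old and were mated with stud males (ICR in the study's methods), and the oviducts were taken on day 2 of pregnancy. In the Pbrm1 cKO mice, floxed Pbrm1 alleles were deleted by cre expressed from the progesterone receptor gene (Pbrm1 fl/fl with PR-IRES-cre). Deletion is thus limited to cells in which that gene is or has been active, and is not particular to muscle. The study's text reports cre from this promoter already in the neonate. The labels call the controls WT, whereas the study's own text names floxed littermates without cre. The cre line is a B6.129S(Cg) strain, and the strain of the floxed line was not given. In both groups the oviducts were digested with enzymes, and the released cells were filtered, plated for 4 h and kept for a further 2 h in new medium, so both groups carry whatever dissociation and short culture did to these genes. The replicates were called biological, but whether each library holds 1 animal or a pool was not given, and the p-values measure the spread between these libraries.

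Interferons are secreted proteins that cells release on sensing foreign or misplaced nucleic acid, and that neighboring cells read through paired receptor chains. Type I interferons act through the IFNAR receptor and a factor complex that holds STAT2 and IRF9 and binds the interferon-stimulated response element (ISRE), whereas interferon gamma acts through IFNGR and the GAS element. The induced genes code for sensors, nucleases, GTPases and a ubiquitin-like modifier that limit virus growth, and many also raise the supply of sensors and factors that started the response. In the reproductive tract these genes are best known for infection and, in some mammals, for signals from the early conceptus.

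The libraries held between 15390818 and 18947947 counts assigned to genes. Levels are given below as CPM, the count scaled to a common library size with TMM factors, and a gene was called higher or lower when its adjusted p in edgeR's quasi-likelihood test was under 0.05. Pbrm1 itself measured 170.1, 183 and 172 CPM in WT replicates 1 to 3 and 43.5, 50.7 and 42.7 CPM in Pbrm1 cKO replicates 1 to 3, which left 26.0% of the WT mean (log2 fold change -1.94 ± 0.064 SE, edgeR adjusted p = 9.13e-11). Of 8 smooth muscle markers, Acta2 (1287 CPM in WT, 1536 CPM in Pbrm1 cKO) and Tagln (1598 and 2000.3 CPM) were abundant in both groups. The rest had WT means from 40.7 CPM (Lmod1) to 239 CPM (Des). Summed by list, smooth muscle markers reached 3513 CPM in WT and 4546 CPM in Pbrm1 cKO, and fibroblast markers 3835 and 4938 CPM. Leukocyte markers summed to 810 and 1273 CPM, and epithelial markers to 803 and 956 CPM. As 7 of 7 epithelial, 7 of 7 fibroblast and 12 of 14 leukocyte markers passed the filter on low counts, RNA of other cell types was present. In bulk RNA, more cells of a type and more RNA per cell cannot be told apart. Across all 15376 genes tested, 6723 (43.7%) were called, 3373 higher (21.9%) and 3350 lower (21.8%), and the median of all log2 fold changes was 0.00. Pbrm1 cKO replicate 2 stood apart from replicates 1 and 3 on the interferon genes, and the counts of members, pathway genes and leukocyte and smooth muscle markers are therefore also given without it.

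Of the 42 interferon response genes, 41 (97.6%) were higher in Pbrm1 cKO cells, none was lower, and Rsad2 was the 1 gene not called, against 21.9% called higher among all genes. Because the set was chosen with earlier results known, the shares here describe it and do not test it. In 40 of the 42 (95.2%) every Pbrm1 cKO library lay above every WT library, which was so for 26.6% of all genes. The median log2 fold change was 1.39, or 2.63-fold, and ranged from 0.33 for Ifnar1 to 2.64 for Isg15. A called rise of more than 1 on the log2 scale was seen in 29 of the 42 (69.0%), compared with 3.62% of all genes. Summed over the 42 genes, the level was 946, 928 and 936 CPM in WT (mean 937 ± 9.31 SD, n = 3) and 2272, 1666 and 2305 CPM in Pbrm1 cKO (mean 2081 ± 359.9 SD, n = 3), 222% of WT. The WT libraries differed little among themselves, and Pbrm1 cKO replicate 2 was lower than the other 2 Pbrm1 cKO libraries but well above WT. Without that library, edgeR called 42 of the 42 higher and the median log2 fold change was 1.55. Among all genes 3585 were then called higher, against 3373 with it. The library was picked for its low values on these genes. Leaving it out therefore raises their fold changes and is no separate support.

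**Figure D1:**
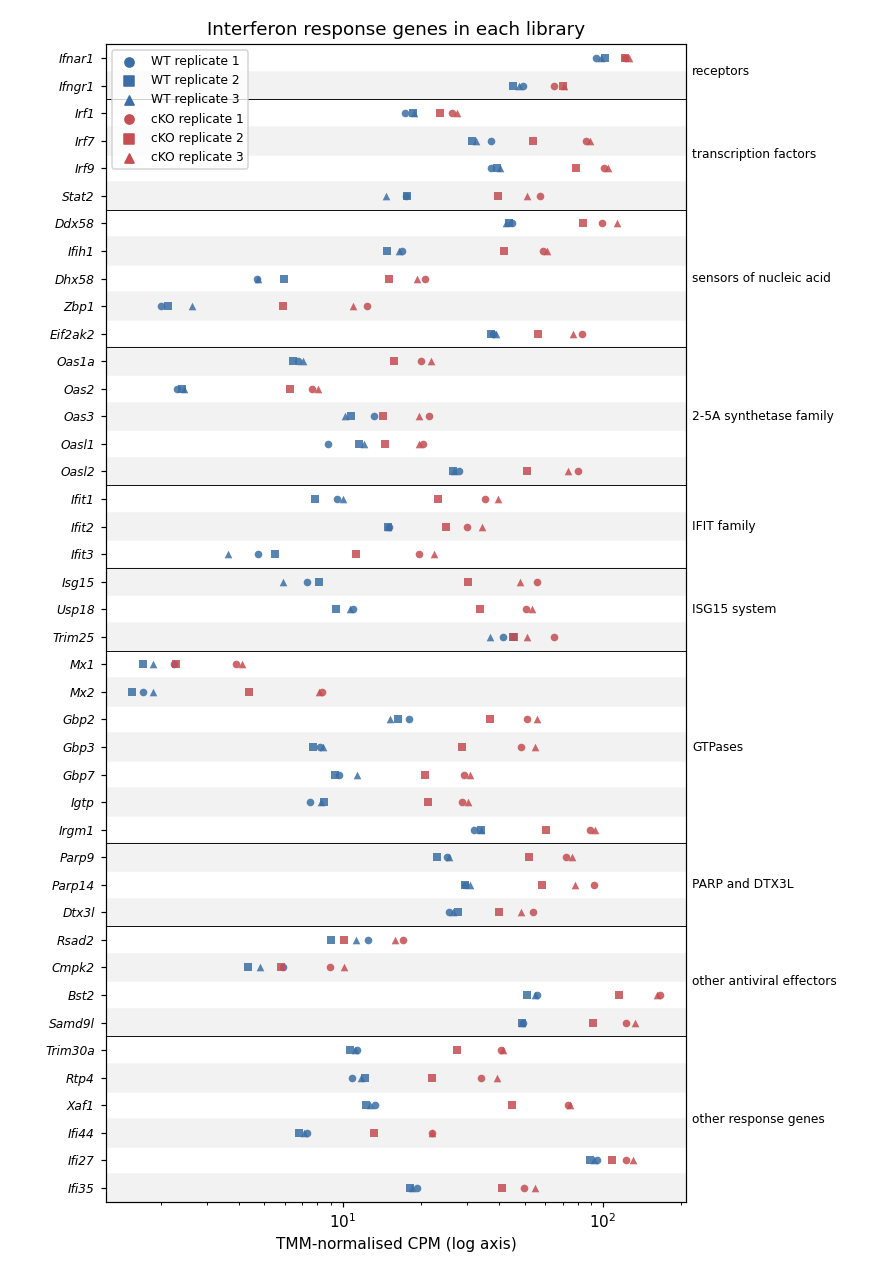
TMM-normalised CPM (log axis) of each of the 42 interferon response genes in the 6 libraries, 1 point a library, grouped by role, with WT in blue and Pbrm1 cKO in red. In 40 of the genes all red points lie to the right of all blue points, the 2 exceptions being Rsad2 and Cmpk2, and the red square (Pbrm1 cKO replicate 2) is the lowest red point in 40 genes.

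The ISRE letters stood at many of these promoters. RefSeq windows of the GRCm38.p6 assembly, from 250 bases before to 50 bases after an annotated gene start, were held for 32 of the 42 genes and were searched on both strands for GAAANNGAAA (ISRE) and TTCNNNGAA (GAS). The windows of 17 of the 32 genes (53.1%) held the ISRE letters, against 3.44% of all 32851 windows and 3.99% of the 27025 gene symbols. GAS letters were held by 9 of the 32 (28.1%), against 9.55% of all symbols. Both elements occurred in 5 genes, with 1 pair of matches overlapping, in Bst2. The 250 bases before the start are shown for the 2 genes with the largest rises, Isg15 and Gbp3, which hold the letters, and for Rsad2, which holds them too and was not called. Capitals mark the ISRE letters (GAAANNGAAA, or TTTCNNTTTC where they lie on the opposite strand), and each sequence reads 5′ to 3′ toward the gene.
Isg15 (chr4:156200819-156201068, minus strand): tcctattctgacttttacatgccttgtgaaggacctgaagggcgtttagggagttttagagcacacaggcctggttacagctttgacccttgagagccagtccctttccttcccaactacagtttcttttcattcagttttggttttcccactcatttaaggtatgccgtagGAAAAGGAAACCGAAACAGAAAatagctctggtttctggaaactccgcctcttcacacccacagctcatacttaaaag
Gbp3 (chr3:142559794-142560043, plus strand): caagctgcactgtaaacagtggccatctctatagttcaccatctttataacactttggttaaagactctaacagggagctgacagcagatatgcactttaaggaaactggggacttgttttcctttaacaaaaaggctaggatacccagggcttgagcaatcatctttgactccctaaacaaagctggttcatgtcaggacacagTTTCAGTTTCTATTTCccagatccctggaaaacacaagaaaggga
Rsad2 (chr12:26456453-26456702, minus strand): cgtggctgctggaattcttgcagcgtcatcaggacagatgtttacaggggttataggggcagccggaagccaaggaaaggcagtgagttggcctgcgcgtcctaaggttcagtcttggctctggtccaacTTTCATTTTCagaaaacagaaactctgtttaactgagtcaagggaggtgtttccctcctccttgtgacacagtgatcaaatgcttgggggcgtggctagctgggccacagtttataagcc

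In Isg15 the capitals are 3 overlapping matches and in Gbp3 they are 2, whereas Rsad2 has 1. For each other role that had a match, the gene with the largest rise is shown with 9 bases on both sides of 1 match (8 after it in Ifih1, where the window ends), turned so that the element reads GAAANNGAAA.
Stat2 (capitals at chr10:128270276-128270285, minus strand): tagggaaagGAAACTGAAAccagggtgc
Ifih1 (capitals at chr2:62646214-62646223, minus strand): aagagaatcGAAACAGAAAccgatctg
Oas1a (capitals at chr5:120907530-120907539, minus strand): cgggaaatgGAAACTGAAAatctacttc
Ifit3 (capitals at chr19:34583407-34583416, minus strand): aggaaagtaGAAACTGAAAcagacttaa
Bst2 (capitals at chr8:71537587-71537596, minus strand): caggaaaatGAAACTGAAAggctgcagt
Trim30a (capitals at chr7:104465220-104465229, plus strand): aggaactgaGAAAAAGAAActaaagaac

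A match is a stretch of letters and not a measured binding site. Only these exact letters were searched, so a gene without a match may still hold a looser form of the element, or one outside the window. Members with the ISRE letters had a median log2 fold change of 1.54 (from 0.38 in Rsad2 to 2.64 in Isg15) and the 15 without them one of 0.98 (from 0.33 in Ifnar1 to 2.33 in Xaf1), so the ranges overlapped almost throughout. Among all tested genes with a window, 159 of the 400 with the ISRE letters (39.8%) were called higher and 17.8% lower, against 23.1% higher and 22.9% lower of the 10345 without them. With the members and the rest of the interferon list taken out, 130 of 363 genes with the letters (35.8%) were higher and 71 (19.6%) lower. That list does not hold every interferon response gene, so others may be among the 363.

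**Figure D2:**
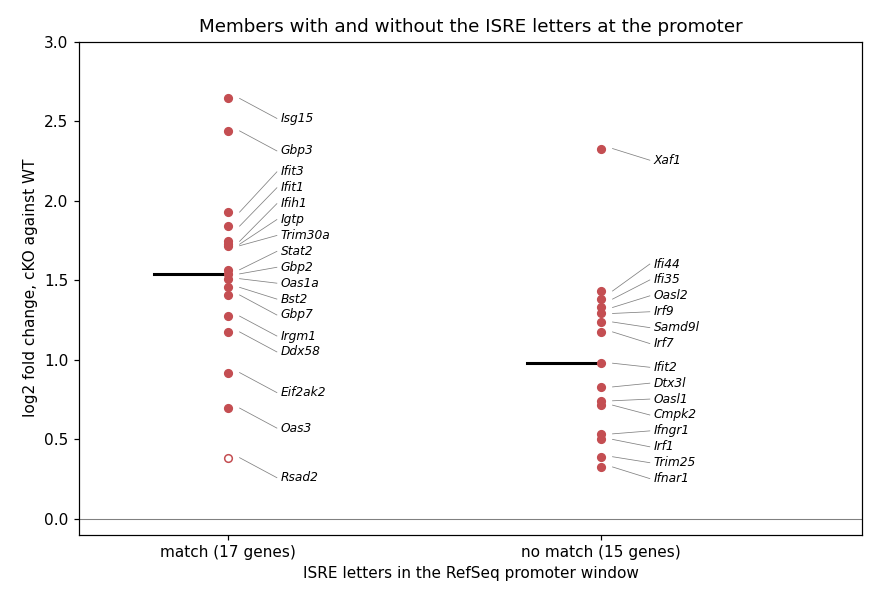
Log2 fold change, Pbrm1 cKO against WT, of the 32 interferon response genes with a RefSeq promoter window, split by whether the window holds the ISRE letters (17 genes) or not (15 genes). Points are genes, bars are medians (1.54 and 0.98), and the open circle is Rsad2, the gene not called, which lies at the bottom of the group with a match.

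Of the roles, the receptor chains had the lowest median log2 fold change, 0.43. Ifnar1, a chain of the type I interferon receptor, measured 93.8, 102 and 98.4 CPM in WT and 121, 122 and 126 CPM in Pbrm1 cKO (log2 fold change 0.33 ± 0.047 SE, edgeR adjusted p = 9.53e-05). Ifngr1, the ligand-binding chain of the interferon gamma receptor, measured 49.3, 45.1 and 47.8 CPM in WT and 64.6, 70.4 and 70.6 CPM in Pbrm1 cKO (0.53 ± 0.058, adjusted p = 7.51e-06). In both genes the groups were separate and the 3 Pbrm1 cKO libraries lay close together. They were the only members in which Pbrm1 cKO replicate 2 was not the lowest of its group.

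The 4 transcription factor genes were all higher. Irf1, an early factor of the interferon gamma response, rose from 17.3, 18.6 and 18.7 CPM to 26.4, 23.6 and 27.5 CPM (log2 fold change 0.50 ± 0.079 SE, edgeR adjusted p = 0.000201). Irf7, the factor that amplifies type I interferon production, rose from 37.2, 31.5 and 32.4 CPM to 86.0, 53.6 and 89.2 CPM (1.17 ± 0.15, adjusted p = 2.66e-05). Both pairs of groups were separate, and the Pbrm1 cKO libraries of Irf7 were far apart, with replicate 2 the lowest. Irf9, which codes for the DNA-contacting part of the ISRE-binding complex, rose from 37.0, 39.0 and 40.2 CPM to 101, 78.7 and 105 CPM (1.29 ± 0.091, adjusted p = 1.59e-07). Stat2, which codes for its partner there, rose from 17.6, 17.7 and 14.7 CPM to 57.3, 39.7 and 51.2 CPM (1.57 ± 0.12, adjusted p = 3.13e-07). Both genes were higher with no overlap between the groups.

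Sensors of nucleic acid rose in 5 of 5 genes, with a median log2 fold change of 1.74. Among the cytosolic helicases that read viral RNA, Ddx58 (RIG-I) went from 44.7, 43.4 and 42.6 CPM to 99.1, 83.6 and 113 CPM (1.17 ± 0.087 SE, edgeR adjusted p = 2.4e-07). Ifih1 (MDA5) went from 17.0, 14.8 and 16.4 CPM to 58.8, 41.6 and 61.1 CPM (1.74 ± 0.13, adjusted p = 1.88e-07). Dhx58 (LGP2), their regulator, went from 4.67, 5.93 and 4.74 CPM to 20.7, 15.0 and 19.4 CPM (1.83 ± 0.14, adjusted p = 3.05e-07). In none of these 3 helicase genes did the groups touch. Zbp1, a sensor of Z-form nucleic acid that can start necroptosis, was rare in WT, at 2.01, 2.14 and 2.63 CPM, and reached 12.4, 5.89 and 10.9 CPM in Pbrm1 cKO (2.10 ± 0.26, adjusted p = 2.16e-05). Eif2ak2, which codes for PKR, the kinase that halts translation on binding double-stranded RNA, went from 37.8, 37.3 and 39.0 CPM to 82.9, 56.1 and 76.9 CPM (0.92 ± 0.11, adjusted p = 1.78e-05). In Zbp1, Pbrm1 cKO replicate 2 held 50.4% of the mean of the other 2 libraries, the lowest such share of the 42.

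OAS enzymes make oligoadenylates that switch on RNase L, and the 5 members of this family in the set were all higher, by 0.70 to 1.61 on the log2 scale. Oas2 rose most, from 2.30, 2.41 and 2.46 CPM to 7.65, 6.26 and 8.04 CPM (1.61 ± 0.15 SE, edgeR adjusted p = 2.16e-06). Oas1a followed, from 6.74, 6.42 and 7.03 CPM to 19.96, 15.8 and 21.9 CPM (1.51 ± 0.12, adjusted p = 5.91e-07). Both were even within WT. Oasl2, an OAS-like gene, rose from 28.1, 26.6 and 26.8 CPM to 80.2, 51.2 and 73.3 CPM (1.33 ± 0.13, adjusted p = 2.24e-06). Its neighbor Oasl1, which lacks synthetase activity, rose less, from 8.75, 11.6 and 12.1 CPM to 20.3, 14.6 and 19.6 CPM (0.74 ± 0.14, adjusted p = 0.00069), and Oas3 least, from 13.2, 10.8 and 10.2 CPM to 21.5, 14.3 and 19.7 CPM (0.70 ± 0.14, adjusted p = 0.00134). In Oasl1 and Oas3 the lowest Pbrm1 cKO library, replicate 2, came close to the highest WT library. The transcript of Oas1a matched that of Oas1g at up to 97.6% identity over its whole length. Reads aligned to several places were not counted, so the levels of both genes may be understated. Oas1g measured 1.24, 1.604 and 1.17 CPM in WT and 4.78, 2.55 and 4.05 CPM in Pbrm1 cKO, and rose as well.

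IFIT proteins bind RNA that lacks host cap marks, and all 3 genes measured were higher. Ifit3 rose from 4.73, 5.51 and 3.63 CPM to 19.7, 11.2 and 22.5 CPM (1.93 ± 0.23 SE, edgeR adjusted p = 1.6e-05). Ifit1 rose from 9.51, 7.86 and 10.01 CPM to 35.3, 23.3 and 39.6 CPM (1.84 ± 0.17, adjusted p = 1.5e-06). Ifit2 rose from 15.1, 15.0 and 14.9 CPM to 29.9, 24.9 and 34.2 CPM (0.98 ± 0.10, adjusted p = 5.49e-06). All Pbrm1 cKO libraries exceeded all WT libraries in the 3 genes. Ifit3 shares 97.4% of its transcript with Ifit3b, at up to 97.8% identity, and Ifit3b measured 1.54, 1.71 and 1.17 CPM in WT and 6.07, 4.19 and 8.75 CPM in Pbrm1 cKO.

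The ISG15 system held the largest change. Isg15, the ubiquitin-like modifier attached to proteins during an interferon response, measured 7.27, 8.13 and 5.91 CPM in WT and 55.8, 30.2 and 48.0 CPM in Pbrm1 cKO (log2 fold change 2.64 ± 0.20 SE, 6.25-fold, edgeR adjusted p = 2.71e-07). Every Pbrm1 cKO library was far above every WT library, with replicate 2 the lowest. A processed pseudogene, AC151275.1, matches 63.8% of the Isg15 transcript at up to 95.2% identity, and no value is given for it here; reads that fit both were not counted. Usp18, the protease that removes ISG15 and also damps the type I receptor, rose from 10.99, 9.41 and 10.7 CPM to 50.8, 33.8 and 53.4 CPM (2.15 ± 0.15, adjusted p = 1.53e-07). Trim25, a ubiquitin ligase that activates RIG-I, rose from 41.2, 45.2 and 36.8 CPM to 65.0, 45.6 and 51.1 CPM (0.39 ± 0.11, adjusted p = 0.0108). The Trim25 groups almost met, with WT replicate 2 at 45.2 CPM and Pbrm1 cKO replicate 2 at 45.6 CPM. Its call was lost without WT replicate 3 (adjusted p = 0.0658 in edgeR) and without Pbrm1 cKO replicate 1 (adjusted p = 0.0588).

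Interferon-induced GTPases were higher in 7 of 7 genes (median log2 fold change 1.54). Guanylate-binding proteins coat microbes and the vacuoles that hold them. Gbp3 rose from 8.15, 7.70 and 8.43 CPM to 48.5, 28.9 and 54.9 CPM (2.44 ± 0.20 SE, edgeR adjusted p = 4.75e-07), the second largest change of the 42. Its neighbors on chromosome 3 rose less, Gbp2 from 18.02, 16.3 and 15.2 CPM to 51.2, 37.0 and 56.0 CPM (1.54 ± 0.13, adjusted p = 7.12e-07) and Gbp7 from 9.69, 9.36 and 11.4 CPM to 29.2, 20.7 and 30.9 CPM (1.41 ± 0.14, adjusted p = 2.88e-06). Among the immunity-related GTPases, which act on parasite vacuoles and autophagy, Igtp rose from 7.50, 8.45 and 8.25 CPM to 28.8, 21.2 and 30.4 CPM (1.73 ± 0.13, adjusted p = 2.67e-07). Irgm1, a regulator of the same family, rose from 31.9, 34.1 and 34.1 CPM to 89.1, 60.4 and 93.3 CPM (1.27 ± 0.13, adjusted p = 2.96e-06). No library of one group reached the other in these 5 genes.

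Mx1 and Mx2, dynamin-like GTPases that trap viral components, had the fewest counts of the 42, as few as 32 and 29 in a library. Mx2 rose from 1.71, 1.55 and 1.87 CPM to 8.32, 4.35 and 8.11 CPM (2.00 ± 0.25 SE, edgeR adjusted p = 2.53e-05). Mx1 measured 2.25, 1.71 and 1.87 CPM in WT and 3.88, 2.28 and 4.12 CPM in Pbrm1 cKO (0.81 ± 0.24, adjusted p = 0.0133). The lowest Pbrm1 cKO library of Mx1 lay just above the highest WT library. Its call was lost in edgeR without WT replicate 2, without Pbrm1 cKO replicate 1 and without Pbrm1 cKO replicate 3, with adjusted p values from 0.0531 to 0.0637. The transcripts of Mx2 and Mx1 match at up to 96.1% identity over 34.8% of Mx2, a stretch where reads that fit both genes were not counted.

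Parp9 and Dtx3l code for partners in an ADP-ribosylation and ubiquitin ligase complex, and Parp14 for a related ADP-ribosyltransferase. Parp9 rose from 25.2, 23.0 and 25.7 CPM to 72.4, 51.9 and 76.0 CPM (1.44 ± 0.12 SE, edgeR adjusted p = 5.37e-07). Parp14 rose from 29.5, 29.6 and 30.9 CPM to 92.8, 58.3 and 78.3 CPM (1.35 ± 0.13, adjusted p = 1.82e-06). Dtx3l rose from 25.5, 27.7 and 26.6 CPM to 53.9, 39.8 and 48.4 CPM (0.83 ± 0.094, adjusted p = 1.11e-05). The groups were separate in all 3. Parp9 and Dtx3l overlap head to head on chromosome 16, and their reads were told apart by strand.

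Other antiviral effectors were the most divided role. Bst2, tetherin, which holds budding virus at the cell surface, rose from 55.8, 51.0 and 54.6 CPM to 166, 115 and 162 CPM (1.45 ± 0.11 SE, edgeR adjusted p = 2.48e-07). Samd9l, a growth and virus restriction factor, rose from 49.5, 48.7 and 48.8 CPM to 122, 91.6 and 133 CPM (1.24 ± 0.10, adjusted p = 6.94e-07). Neither gene showed overlap. Cmpk2, a mitochondrial nucleotide kinase, measured 5.91, 4.33 and 4.80 CPM in WT and 8.94, 5.78 and 10.1 CPM in Pbrm1 cKO (0.71 ± 0.19, adjusted p = 0.00781), and was called although Pbrm1 cKO replicate 2 lay below WT replicate 1. Rsad2, viperin, which makes a chain-ending nucleotide, measured 12.5, 9.04 and 11.3 CPM in WT and 17.0, 10.1 and 15.8 CPM in Pbrm1 cKO (0.38 ± 0.17, adjusted p = 0.0836), and was not called. Its overlap came from Pbrm1 cKO replicate 2 alone, and without that library the log2 fold change was 0.60 (edgeR adjusted p = 0.000513). Leaving out the library picked as the lowest raises this value, so that call is no separate support. Rsad2 and Cmpk2 are neighbors, at positions 26442746 to 26456452 and 26469204 to 26479837 of chromosome 12 (GRCm38), 12752 bases apart on opposite strands. They were also the only members in which the groups overlapped.

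The remaining 6 response genes, of varied or less settled function, were all higher. Xaf1, a proapoptotic gene, rose from 13.4, 12.2 and 12.8 CPM to 73.6, 44.8 and 74.6 CPM (2.33 ± 0.16 SE, edgeR adjusted p = 1.55e-07), the largest change of a member whose window lacked the ISRE letters. Trim30a, a TRIM family gene that dampens inflammatory signaling, rose from 11.3, 10.7 and 11.1 CPM to 40.7, 27.4 and 41.2 CPM (1.72 ± 0.14, adjusted p = 4.34e-07). Rtp4, a receptor transporter gene, rose from 10.9, 12.1 and 11.8 CPM to 34.1, 22.1 and 39.1 CPM (1.44 ± 0.16, adjusted p = 1.13e-05). In all 3 the Pbrm1 cKO libraries fell into the same order, replicate 2 below the other 2. Ifi44 rose from 7.27, 6.79 and 7.08 CPM to 22.0, 13.2 and 22.1 CPM (1.43 ± 0.17, adjusted p = 1.9e-05). Ifi35 rose from 19.3, 18.2 and 18.4 CPM to 49.8, 41.1 and 54.9 CPM (1.38 ± 0.095, adjusted p = 1.33e-07). Ifi27, which codes for a small membrane protein, was abundant in WT already, at 95.02, 89.2 and 92.7 CPM, and rose least of the 6, to 123, 108 and 130.5 CPM (0.38 ± 0.062, adjusted p = 0.000238).

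**Figure D3:**
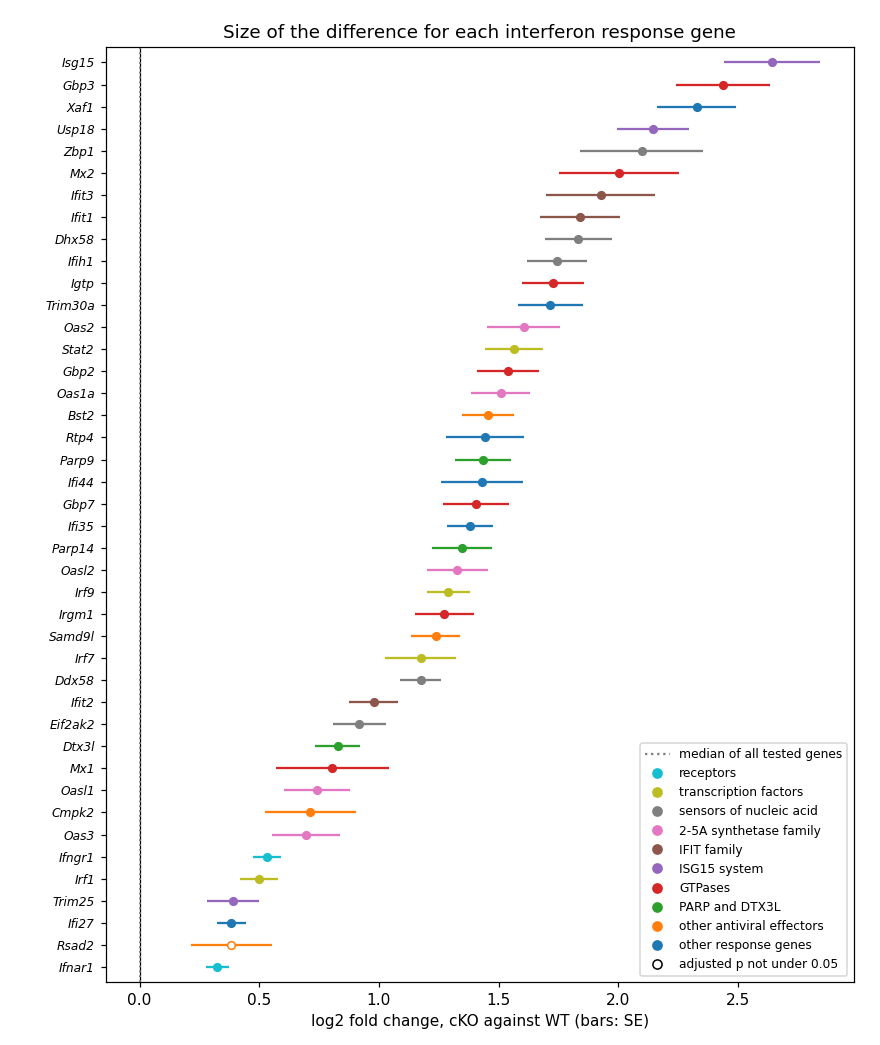
Log2 fold change, Pbrm1 cKO against WT, of each of the 42 interferon response genes with its SE, sorted by size and colored by role. Values run from 0.33 (Ifnar1) to 2.64 (Isg15), all to the right of the median of all tested genes (dotted line near 0), and the open circle marks Rsad2, the 1 gene not called.

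Per length, on the RPKM scale (counts per kilobase of exon, scaled as CPM), the members spanned a wide range. Ifi27 had the highest mean level in WT at 62.9 RPKM, followed by Bst2 at 59.6, Ifngr1 at 16.6 and Ifnar1 at 16.5. In Pbrm1 cKO, Bst2 led at 163 RPKM, ahead of Ifi27 at 82.2 and Isg15 at 59.1. Isg15, which ranked 6 of the 42 in WT at 9.40 RPKM, thus ranked 3. The median member level was 3.91 RPKM in WT and 10.5 RPKM in Pbrm1 cKO.

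Several members lie next to a gene of their own family, and neighbors often had unequal values. On chromosome 5, Oas3 (0.70) lay between Oas2 (1.61) and Oas1a (1.51), and Oasl2 (1.33) lay beside Oasl1 (0.74). On chromosome 19, Ifit2 (0.98) lay beside Ifit3 (1.93) and Ifit1 (1.84), and on chromosome 16, Mx1 (0.81) lay 72401 bases from Mx2 (2.00). These are log2 fold changes, and the differences between neighbors were not tested.

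Pbrm1 cKO replicate 2 was lower than both other Pbrm1 cKO libraries in 40 of the 42 genes (95.2%), the 2 receptor chains being the exceptions. Over the 42 genes its median level was 69.5% of the mean of replicates 1 and 3, with a range from 50.4% in Zbp1 to 104% in Ifngr1. The median fold over the WT mean was 2.93 in replicate 1, 1.98 in replicate 2 and 2.97 in replicate 3, on CPM with 0.1 added. The same library was the lowest of its group in 36.6% of all tested genes and in 57.2% of the 3277 other genes called higher. Of the 504 other genes called higher by more than 1 on the log2 scale, 61.3% were lowest there, at a median of 86.4% of the other 2 libraries. Replicate 2 also held the most Pbrm1 of the Pbrm1 cKO libraries (50.7 CPM against 43.5 and 42.7) and the largest share of mitochondrial counts (7.81% against 6.88% and 7.08%, with 7.95% to 8.24% in WT). The part of these 2 measures in the interferon values was not tested.

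**Figure D4:**
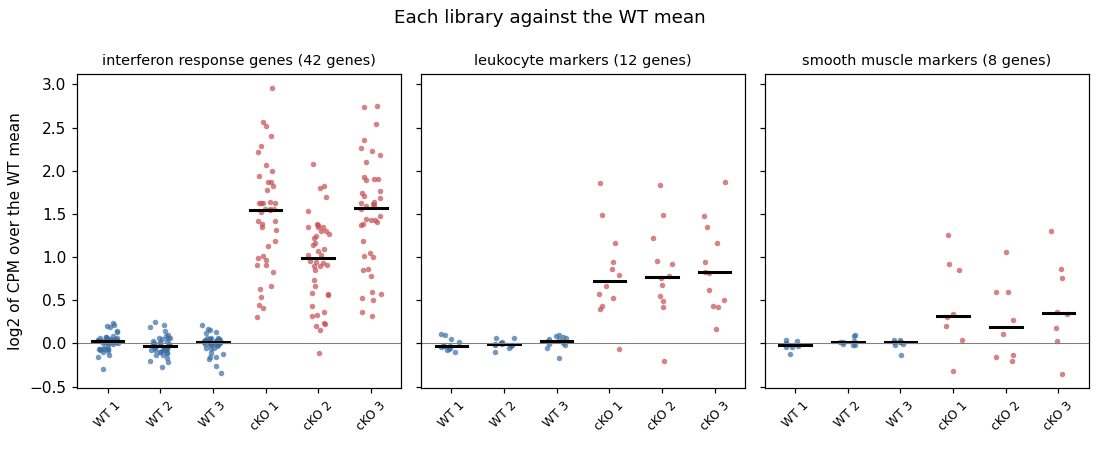
Log2 of each library's CPM over the WT mean (0.1 added to both) for the 42 interferon response genes, 12 leukocyte markers and 8 smooth muscle markers, with 1 point a gene and a bar at the median. Pbrm1 cKO replicate 2 has a lower median (0.99) than replicates 1 and 3 (1.55 and 1.57) on the interferon genes, while on the leukocyte markers the medians are 0.72, 0.77 and 0.82.

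Leukocyte markers moved with the group too. For the marker lists that follow, most of them short, the shares over all genes were 21.9% called higher and 21.8% lower. Of 14 listed, 12 were tested and 11 were higher in Pbrm1 cKO (median log2 fold change 0.78, from -0.03 to 1.86). The summed level rose from 793 to 844 CPM in WT to 1234 to 1313 CPM in Pbrm1 cKO, 157% of WT. Without Lyz2 it was 182% of WT. The defining T cell and B cell markers Cd3e and Cd79a had at most 5 counts in any library. Pbrm1 cKO replicate 2 was the lowest library of its group in 4 of 12 leukocyte markers, with a median of 99.1% of the other 2 libraries. It was lowest in 7 of 8 smooth muscle markers, with a median of 86.3%, in 5 of 7 epithelial and in 6 of 10 dissociation response markers. Among fibroblast and endothelial markers it was lowest in 3 of 7 each, and among mesothelial markers in 1 of 4. The shares were 36.6% of all tested genes and 57.2% of other genes called higher. Without that library 11 leukocyte markers were called higher, and 6 of 8 smooth muscle markers were then higher and 1 lower. Of 5 markers listed for plasmacytoid dendritic cells, a main source of type I interferon in blood, 3 did not pass the filter on low counts, and Siglech, the defining one in mice, had no count in any library, which allows up to 3 counts a library. Neither of the other 2 was called, and nearly all of the summed level came from Tcf4 (387 CPM in WT, 379.8 CPM in Pbrm1 cKO), which many cell types express. Fibroblast markers were higher in 4 and lower in 1 of 7 (summed level 129% of WT, or 178% without Col1a1). Smooth muscle markers were higher in 5 and lower in 1 of 8 (also 129%, or 133% without Tagln). Endothelial markers were higher in 1 and lower in 1 of 7, with a median log2 fold change of -0.03. Their summed level was 79.8% of WT, or 106% without Kdr, named after its values were seen. Epithelial markers were higher in 5 of 7 (119%, or 123% without Krt8). Mesothelial markers were lower in 2 of 4 (79.9%, or 70.5% without Wt1). Genes of the response to tissue dissociation were higher in 7 and lower in 1 of 10 (136%, or 143% without Junb). In each list the gene left out was the one with the highest mean level. The part of these cell types, or of dissociation, in the interferon values was not tested.

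The 9 interferon genes listed, which include only some of the mouse Ifna genes, were at or near the limit of detection. Of these 9, none passed the filter on low counts. Ifna1, Ifna2, Ifna4, Ifnl2 and Ifnl3 had no count in any of the 6 libraries, for which 3 counts, or 0.158 to 0.195 CPM before scaling, is the limit that a count of 0 allows. Ifnb1 had 2, 3 and 3 counts in WT and 1, 4 and 1 in Pbrm1 cKO. Ifne, a type I interferon of reproductive epithelium, had 3, 5 and 3 counts in WT and 6, 4 and 5 in Pbrm1 cKO. Ifng and Ifnk had at most 1 count in a library. None of the 9 thus exceeded 6 counts in a library. A difference in their RNA within so few counts was not detectable at this depth, and these limits cover counting error only.

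The rest of the pathway was read from a list of 89 genes outside the 42, also chosen with earlier results known, of which 79 were tested. Of these, 55 were higher in Pbrm1 cKO (69.6%, against 21.9% of all genes), 2 were lower and 22 were not called. Without Pbrm1 cKO replicate 2, a library picked for its low values on interferon genes, 58 were higher and 2 lower. The counts by role that follow mostly rest on few genes, and 43.7% of all genes were called in one direction or the other. Their median log2 fold change was 0.58, below the 1.39 of the 42. Among receptor chains, 2 of 4 were higher, Ifngr2 (0.51) and Ifnar2 (0.35), in the same range as the receptor members. Of kinases and signal transducers, 4 of 5 were higher, among them the receptor kinase Jak2 (0.58) and Stat3 (0.49). Of the other IRF factor genes, Irf5 (0.60) and Irf8 (0.59), both known mainly from myeloid cells, were higher, and 2 were not called. Sensing genes were higher in 6 and lower in 1 of 11, with the endosomal or surface receptors Tlr3 (0.98), Tlr4 (0.83) and Tlr7 (0.70) first and Mavs, the adaptor of RIG-I and MDA5, lower (-0.25, edgeR adjusted p = 0.011). Feedback inhibitors were higher in 2 of 5, Socs3 (1.27) and Ptpn6 (0.71). These values are log2 fold changes.

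A further 50 response genes were tested, of which 39 were higher and 1 was lower (median log2 fold change 0.94). Trim34a rose from 1.06, 1.44 and 1.93 CPM to 7.54, 6.63 and 8.11 CPM (2.32 ± 0.19 SE, edgeR adjusted p = 5.27e-07). Iigp1, an immunity-related GTPase, rose from 3.60, 3.90 and 3.63 CPM to 19.7, 11.1 and 17.3 CPM (2.10 ± 0.19, adjusted p = 1.6e-06). Ifi44l, the neighbor of Ifi44 on chromosome 3, was all but absent in WT, with 1, 0 and 1 counts, and had 23, 35 and 33 counts in Pbrm1 cKO (edgeR adjusted p = 4.68e-06). The ratio of its counts per total was 46.4, with a 95% interval by the exact Clopper-Pearson method of 12.5 to 389, which covers counting error only. Gbp8 was the 1 lower gene, from 4.37, 5.83 and 6.09 CPM to 3.09, 2.07 and 3.15 CPM (-0.98 ± 0.19, adjusted p = 0.000909), unlike the 3 GBP genes among the 42. Its span overlaps those of other listed GBP genes on the same strand, and what this did to its counts was not examined. Of the other GBP genes on the list, some were higher and some were not called. Pbrm1 cKO replicate 2 was the lowest library of its group in 67 of the 79 tested genes (84.8%).

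**Figure D5:**
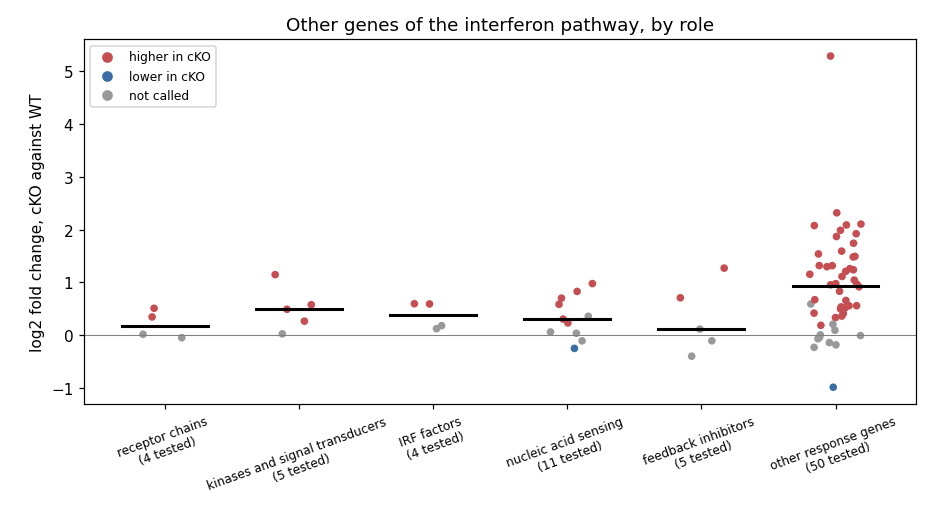
Log2 fold change, Pbrm1 cKO against WT, of the 79 tested pathway genes outside the 42, by role, with 1 point a gene and a bar at each median. Red points (55 genes higher) outnumber blue points (2 lower, Mavs and Gbp8) and gray points (22 not called), and the topmost point is Ifi44l, whose fitted value rests on 2 counts in WT.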

How the data were processed

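The 6 libraries (3 WT, 3 Pbrm1 cKO) were grouped by the labels. The deposited values are counts per gene: per the labels and the file header, the authors trimmed reads with cutadapt, aligned them with HISAT2 to GRCm38.p5 and counted them by strand with featureCounts 1.6.4 on GENCODE M18. Per the file header no option for multiply aligned reads was set, and by default featureCounts leaves them out. Symbols came from a later GENCODE release, which named 99.7% of the 54232 genes.

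From these counts, 15376 genes passed edgeR's filter on low counts (filterByExpr) and were fitted with the quasi-likelihood test of edgeR 4.0.16 in R 4.3.3 after TMM scaling, with Benjamini-Hochberg adjustment over all of them and a threshold of 0.05. The biological coefficient of variation was 5.32%. Alternatives were DESeq2 1.42.0, limma-voom (limma 3.58.1), other scalings and filters, stricter thresholds, a replicate block and leaving out each library. Transcripts were compared by BLAST 2.17.0, at 95% identity or more over at least 100 bases. Promoter windows came from RefSeq (GRCm38.p6). In 30 of 37 member windows a stretch just after the start was found in an annotated transcript of the gene. Whether it lay at the start of that transcript was not checked. Of the windows from which elements are shown, those of Stat2 and Bst2 were not among the 30.

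The members and lists were chosen with earlier results of these data known. Members were described by role, with values for the receptors, the factors and called genes, and up to 3 called pathway genes per role were named, as well as all ligands. A pathway gene that the rule also covers is not reported here. A limit of 3 counts was used for a count of 0.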

Additional observations from a re-analysis of the deposited data

How the results depend on the processing

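The 42 members kept their direction in all 588 values from 14 alternatives each, and 578 of these stayed on the same side of the threshold. Of the others, 7 became weaker (Trim25 and Mx1) and 3 became stronger (Rsad2: without the filter on low counts, adjusted p = 0.00235; with the replicate block, 0.0082; without Pbrm1 cKO replicate 2, 0.000513). The number of members called was 41 or 42 with DESeq2, limma-voom, other scalings and other filters, 39 at an adjusted p under 0.01, and 39 to 42 when 1 library was left out, 39 being without Pbrm1 cKO replicate 1. A log2 fold change above 1 as well as an adjusted p under 0.05 left 29 members, 24 pathway genes and 998 of all genes. Leaving out 1 library gave 5532 to 7054 calls among all genes, 54 to 60 among pathway genes, 36 to 43 among all cell type markers, 11 among leukocyte, 5 among fibroblast and 6 to 7 among smooth muscle markers, and a log2 fold change of -2.02 to -1.89 for Pbrm1. Of 795 pathway values, 22 became weaker, in Mavs, Isg20, Ifi47, Cd274 and Pnpt1. The cause was not tested. Other scalings moved the median of all genes to at most 0.02 on the log2 scale. Depth limits the ligand genes, at 6 counts or fewer a library, and Mx1, Mx2 and Zbp1, at 29 to 34 counts in their lowest libraries.

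Replicates of the same number in the 2 groups did not deviate together (correlations -0.02, 0.04 and 0.09), so no pairing by number was seen. The labels give no pairing, and weak correlations cannot exclude a shared litter or preparation. With the replicate block, edgeR called 6908 genes, 6617 of them also called without it, and 42 members, 58 pathway genes, 40 markers (11 leukocyte, 5 fibroblast and 6 smooth muscle), with Pbrm1 at -1.94.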
